A study of Papio anubis with 24 samples.

Results

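The sites described here are stretches of the baboon genome that were enriched for methylated cytosine in both embryonic stem cells (ESC) and induced pluripotent stem cells (iPSC) and that lie inside the chromosome arms. A member is a pair made of 1 ESC peak and 1 iPSC peak on a numbered autosome that overlapped by at least 1 bp and met no further peak of the other list. Both peaks had to lie more than 10 Mb from position 0 and from the far end of the chromosome, taken as the end of the last peak in either list. This gave 14102 interior pairs out of 26260 one-to-one pairs on the 20 autosomes. The deposited lists hold 166961 ESC and 44434 iPSC peaks in all. The ESC list stands for olive baboon (Papio anubis) lines B4 and B15, and the iPSC list for lines 160-2 and M14939#3. All were cultured on feeder cells in a medium made for human pluripotent cells, and the labels name no treatment, age or time point and do not say whether feeder cells were removed before DNA was taken. Each line has 3 libraries precipitated with an antibody to 5-methylcytosine and 3 input libraries, 24 libraries in total. Of the 6 libraries titled M14939#3, 5 have a differently numbered cell line label.

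Methylation of cytosine in mammals falls mostly on CG dinucleotides, is copied after replication by the maintenance methyltransferase DNMT1, and is set anew by DNMT3A and DNMT3B, which pluripotent cells express. Reprogramming a somatic cell into an iPSC requires erasing part of its methylation pattern and writing that of a pluripotent cell, so the positions of methylated sites are a common measure for setting iPSC beside ESC. Methylated-DNA immunoprecipitation captures whole fragments, and its signal depends on how many methylated CG dinucleotides a fragment carries. A peak therefore marks a methylated stretch at the scale of the fragment, and its summit is the base covered by the most captured fragments. The study set reprogrammed beside embryo-derived cells, and the pairs ask how closely a site called in both coincides in position and extent.

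There is 1 list per cell type, so no value has a replicate error and no difference between the cell types could be tested. Cell type and line cannot be told apart. Intervals in parentheses are exact 95% intervals for counting error, which treat sites as independent, and neighbouring sites are not. Since pairs were chosen by the positions of both peaks, positions and widths are descriptions. The number of fragments at the summit was worked back from the fold and the −log10 p of each peak of the interior pairs. Its median was 107 in ESC (5th to 95th percentile 59 to 191) and 97 in iPSC (55 to 166). Genes are not named because no annotation of the build of the lists was at hand, and positions are given as in the lists, counted from 1.

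Summits of the ESC and iPSC peaks lay close together at most interior sites. The median distance between them was 19 bp (18 to 19 bp), with an interquartile range of 8 to 37 bp, at peaks whose median width was 247 bp in ESC and 233 bp in iPSC. The summits were within 50 bp of each other in 11658 pairs, or 82.7% (82.0 to 83.3%), against 80.7% of all 26260 autosomal pairs, which include the interior ones. They lay within 10 bp in 4355 pairs (30.9%, against 30.1% of all pairs) and on the same base in 222 pairs (1.57%, against 1.58%). At the other extreme, 930 pairs (6.59%, 6.19 to 7.02%) had summits over 100 bp apart, against 8.06% of all pairs. The displacement had almost no preferred side: the iPSC summit had the higher coordinate in 48.3% of the pairs and the lower in 50.1%, against 48.7% and 49.7% of all pairs. Midpoints of the peaks were as far apart as the summits, with a median of 19 bp.

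**Figure D1:**
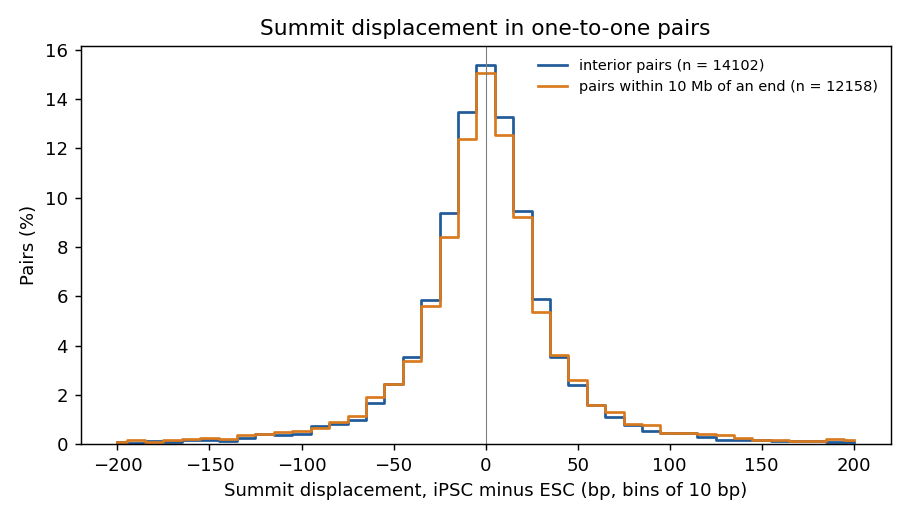
Distribution of the summit displacement (iPSC minus ESC, in bp) as a percentage of one-to-one pairs, in bins of 10 bp, for interior pairs and for pairs within 10 Mb of a chromosome end; pairs beyond 205 bp are outside the plot. Both curves are centred near 0 and symmetrical, and 97.5% of the interior pairs lie inside the plotted range.

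A summit that sat off the middle of its peak in one list tended to sit off the middle on the same side in the other. The summit was 31 bp from its own midpoint in ESC and 25.5 bp in iPSC at the median. Across the 14102 pairs the signed offsets had a Spearman correlation of 0.421 and a Pearson correlation of 0.315. These points share the genome sequence under both peaks, and the value is a description across sites. In 575 pairs (4.08%, against 4.58% of all pairs) at least 1 summit fell outside the peak of the other list although the peaks overlapped. This was the ESC summit in 308 pairs (2.18%, against 2.44%) and the iPSC summit in 291 (2.06%, against 2.41%).

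Displacement was smallest where both peaks were highly significant and largest where either was weak or wide. With the pairs divided into 5 classes of about equal size by the lower of the 2 deposited −log10 q values, the median displacement went from 32 bp (30 to 33 bp) in the lowest class to 23, 18, 16 and 13 bp (12 to 13 bp) in the highest. The share of summits within 50 bp went from 65.6% to 94.9% over the same classes. In the 995 pairs of the highest class in both lists the median was 11 bp, and 1.11% had summits over 100 bp apart. In the 1000 pairs of the lowest class in both lists it was 33 bp, and 16.6% were over 100 bp apart. The fragment count separated the pairs less: from the lowest to the highest of 5 classes of the lower count, the median was 24, 19, 17, 17 and 18 bp.

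Width and displacement went together in a stepwise way, which is partly fixed by the pairing rule. Each summit lies inside its own peak and the peaks overlap, so the 2 widths limit the displacement. Divided by the wider of the 2 peaks, pairs of 190 to 220 bp had a median displacement of 14 bp, and pairs of 385 bp or more had 31 bp. Summits over 100 bp apart made up 20.7% of the widest class (19.3 to 22.3%) and 0.657% of the narrowest (0.396 to 1.02%). The 930 pairs with distant summits had median widths of 361.5 bp in ESC and 351 bp in iPSC, against 239 bp and 228 bp in pairs with summits within 50 bp. Their deposited −log10 q was also lower, at 5.34 against 10.03 in ESC and 6.36 against 8.95 in iPSC.

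**Figure D2:**
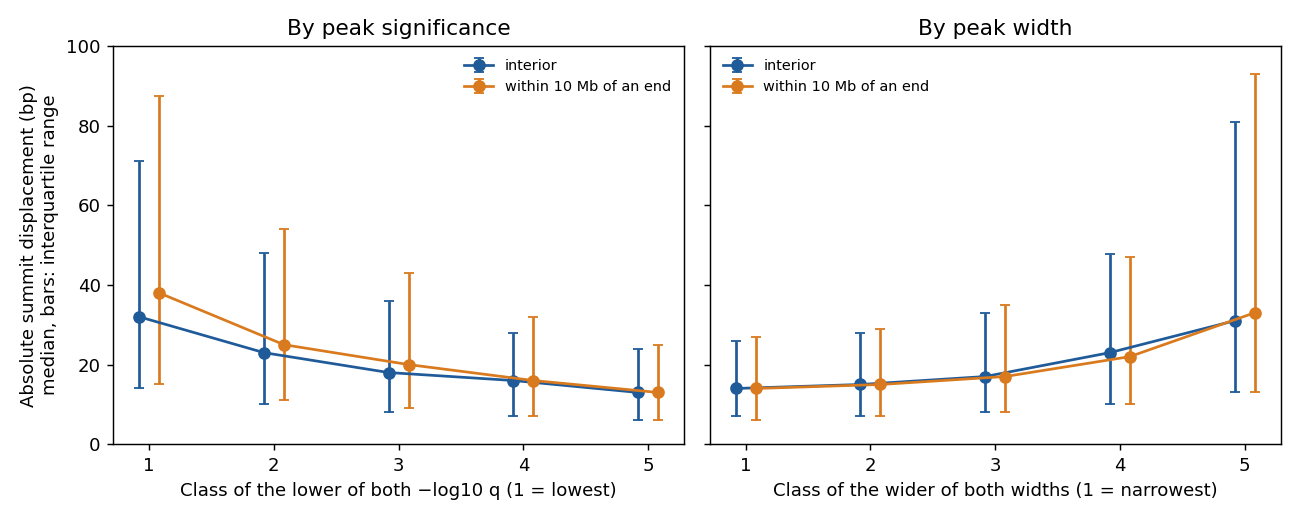
Median absolute summit displacement in bp (points) with interquartile range (bars) over 5 classes of the lower −log10 q (left) and of the wider width (right), for interior pairs and pairs within 10 Mb of an end, with class limits from the interior pairs. The interior medians fall from 32 to 13 bp with significance and rise from 14 to 31 bp with width.

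The largest displacements belonged to sites at which a broad iPSC peak covered all or nearly all of a narrower ESC peak of low fold. A broad peak is needed for distances of this size, since each summit lies inside its own peak and the peaks overlap. On chromosome 3 the ESC peak at 12599124 to 12599399 lay entirely inside the iPSC peak at 12597357 to 12599523, and the summits were 1335 bp apart. The ESC fold there was 1.26 and the iPSC fold 6.50. On chromosome 15 the ESC peak at 93094466 to 93094747 and the iPSC peak at 93094363 to 93096607 had summits 1217 bp apart, with folds of 1.33 and 3.46. The third was on chromosome 1 (ESC 28140047 to 28140280, iPSC 28139976 to 28141505), with summits 1104 bp apart. The next pairs were on chromosome 8 (1034 bp apart) and again on chromosome 15 (1000 bp apart). In all 5 the iPSC peak was the wider, by 998 to 1963 bp, and had the higher fold, between 2.88 and 6.50 against 1.26 to 1.59 in ESC. Fragments at these summits numbered 99 to 270 in ESC and 94 to 218 in iPSC, and the pair on chromosome 8 lay below the interior median in both lists. The recovered background behind them was 61.7 to 213.0 fragments in ESC, against a median of 47.4 over all interior pairs. In iPSC, put on the same scale of fragments, it was 30.01 to 55.06, against a median of 36.2. Whether this background sets the low ESC folds was not tested.

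At sites called in both lists the iPSC peak was on the whole slightly the narrower. The median width was 233 bp in iPSC (interquartile range 206 to 297 bp) and 247 bp in ESC (208 to 322 bp). The median difference within a pair was −6 bp (−7 to −5 bp). The iPSC peak was wider in 6354 pairs (45.1%, 44.2 to 45.9%) and the ESC peak in 7624 (54.1%), against 45.5% and 53.7% of all autosomal pairs. The narrowest peak is 190 bp in the iPSC list and 177 bp in the ESC list, and in 1458 pairs the ESC peak was narrower than any iPSC peak can be, so that the iPSC peak had to be the wider. In the 4092 pairs with both peaks of 250 bp or more, a limit set after the data were seen, the iPSC peak was wider in 42.7% (41.2 to 44.2%) and the median difference was −12 bp. The side of the difference depended on which ESC peaks entered: the iPSC peak was wider in 59.9% of the pairs in the lowest of 5 classes of ESC −log10 q and in 30.4% of those in the highest.

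Differences at the edges were small and nearly mirror images. The iPSC peak started 2 bp later at the median (2 to 3 bp) and ended 3 bp earlier (−3 bp, −3 to −2 bp). Without regard to side, starts differed by a median of 24 bp (interquartile range 11 to 49 bp) and ends by 24 bp (11 to 50 bp). Start and end differences were close to unrelated across pairs, with a Spearman correlation of −0.07. The peaks of a pair shared a median of 209 bp, which was 80% of the stretch covered by either (68.0 to 88.1%). In 13061 pairs (92.6%, against 91.3% of all pairs) the shared stretch was at least 50% of both peaks.

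**Figure D3:**
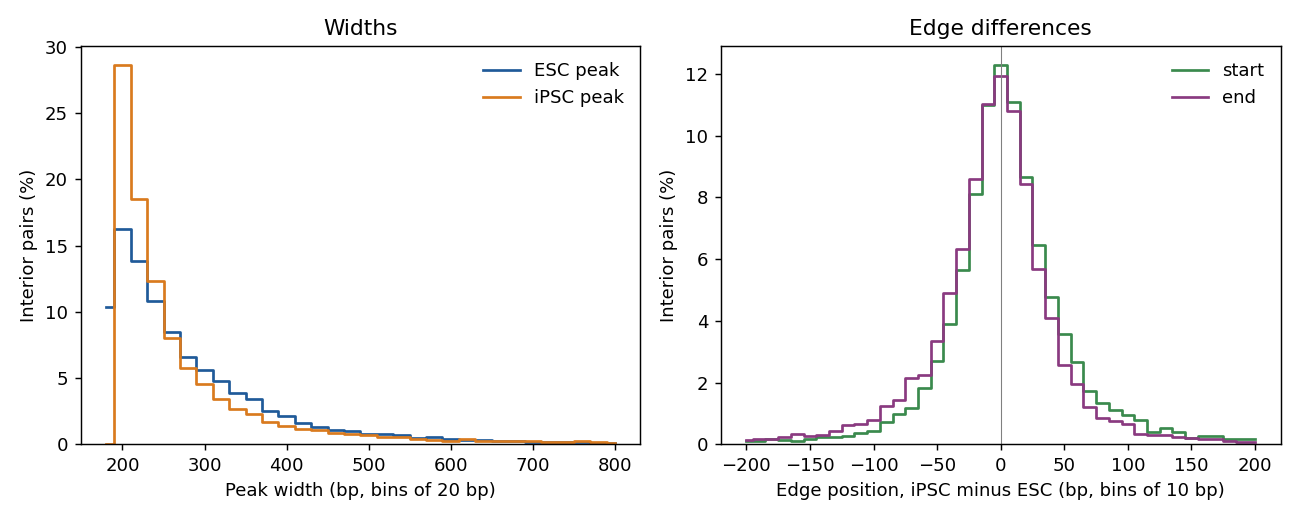
Left, widths of the ESC and iPSC peaks of the interior pairs (percentage of pairs, bins of 20 bp); right, iPSC minus ESC position of the start and the end (percentage of pairs, bins of 10 bp). The iPSC widths pile up just above their lower limit of 190 bp, and the start curve leans to positive and the end curve to negative values by medians of 2 and −3 bp.

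Pairs fell into 4 arrangements of similar frequency. The iPSC peak lay inside the ESC peak in 4151 pairs (29.4%, against 29.7% of all pairs) and the ESC peak inside the iPSC peak in 3205 (22.7%, against 23.9%). In 3401 pairs (24.1%, against 23.1%) both edges of the iPSC peak were shifted to lower coordinates, and in 3345 (23.7%, against 23.3%) to higher ones. The median summit displacement was −10 bp in the pairs shifted to lower coordinates and 9 bp in those shifted to higher ones. It was 0 and −1 bp in the nested arrangements. No interior pair had the same start and end, against 0.0114% of all pairs (3 pairs).

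Width differences followed which list had the more significant peak. Where the deposited −log10 q was higher in iPSC, which held in 6007 pairs (42.6%, against 44.5% of all pairs), the iPSC peak was wider in 64.1% (62.9 to 65.3%) and the median difference was 18 bp. Where it was higher in ESC, the iPSC peak was wider in 30.9% (29.9 to 32.0%) and the median difference was −21 bp. In the 478 pairs of the lowest ESC and highest iPSC class, the iPSC median width was 588.5 bp against 286.5 bp in ESC. In the 139 pairs of the opposite kind the widths were 209 bp in iPSC and 274 bp in ESC. Width and −log10 q of a peak come from the same signal, so these are not separate measures.

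Large width differences were somewhat less frequent on the iPSC side, but the extreme ones were iPSC peaks. The ESC peak was at least 100 bp wider in 1673 pairs (11.9%, against 13.1% of all pairs) and the iPSC peak in 1175 (8.33%, against 10.2%). A width of 1 kb or more was reached by 134 iPSC peaks (0.95%, against 1.13%) and 46 ESC peaks (0.326%, against 0.396%). The largest surplus was on chromosome 1, where an iPSC peak of 5977 bp (51484739 to 51490715) held an ESC peak of 467 bp at its higher-coordinate end (51490205 to 51490671). The 5 largest iPSC surpluses ran from 2025 to 5510 bp, on chromosomes 1, 10, 1, 3 and 9 in that order. In all 5 the whole ESC peak lay inside the iPSC peak. The largest ESC surplus was 1319 bp, on chromosome 6, where an ESC peak of 1541 bp (135742522 to 135744062) held an iPSC peak of 222 bp (135743511 to 135743732). The 5 largest ESC surpluses ran from 727 to 1319 bp, and their summits were only 1 to 33 bp from the iPSC summit.

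The 5 sites with the most shared bases have to be broad in both cell types, since shared bases cannot exceed either width. Some of them had nearly the same extent. The most shared bases, 2642, were on chromosome 4, between an ESC peak at 113203794 to 113206508 and an iPSC peak at 113203817 to 113206458. Their folds were 2.30 and 2.53, and the summits lay 564 bp apart. The site with the second most shared bases was on the same chromosome at 113081918 to 113084716 in ESC and 113082470 to 113084753 in iPSC. It shared 2247 bp but its starts were 552 bp apart, it had folds of 2.72 and 5.38, and its summits were 709 bp apart. The other three, on chromosomes 9, 1 and 7, shared 1491 to 1675 bp, and their summits differed by only 10 to 17 bp. On chromosome 7 the edges at 125623487 to 125624977 (ESC) and 125623441 to 125625047 (iPSC) differed by 46 and 70 bp while the folds were 1.39 and 4.27.

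The deposited fold was higher in iPSC at 10687 interior pairs (75.8%, 75.1 to 76.5%, against 77% of all pairs). The medians were 2.61 in iPSC and 2.14 in ESC, and the median ratio within a pair was 1.19 (interquartile range 1.01 to 1.43). An iPSC fold at least 2 times the ESC fold occurred at 793 pairs (5.62%, against 6.6% of all pairs), and the converse at 11 (0.0780%, against 0.0457%). Each fold is relative to the background of its own list, so the levels are not directly comparable. Over the 14102 pairs the folds of the 2 lists had a Spearman correlation of 0.290 and the −log10 q values 0.319. The recovered fragments at the summit had a Spearman correlation of 0.900 and the recovered background 0.781. These are descriptions across sites that share sequence and mappability, and every site had to pass the threshold in both lists.

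The 5 sites with the highest value of the lower fold had summits 4 to 31 bp apart, beyond the interior median of 19 bp at 1 of them. By the lower of the 2 folds the first was on chromosome 3, at 111364478 to 111364698 in ESC (fold 5.25) and 111364439 to 111364713 in iPSC (5.50), with summits 6 bp apart. The second was on chromosome 6, at 56531563 to 56531778 in ESC (5.91) and 56531551 to 56531765 in iPSC (5.25), with summits 31 bp apart. The third was on chromosome 2, at 120114085 to 120114266 in ESC (4.77) and 120114082 to 120114277 in iPSC (4.79), with summits 7 bp apart. The next were on chromosomes 11 and 6, with lower folds of 4.57 and 4.55. Widths at the 5 sites ran from 182 to 353 bp in ESC and from 196 to 275 bp in iPSC, on both sides of the interior medians of 247 and 233 bp. Summits had 61 to 115 fragments in ESC and 82 to 126 in iPSC, on both sides of the interior medians of 107 and 97. The recovered background was low at all 5, at 11.99 to 24.16 fragments in ESC, against an interior median of 47.4. In iPSC, on the same scale of fragments, it was 14.82 to 22.57, against 36.2. The ESC value on chromosome 2 and the iPSC value at the second site lay at the minimum over all interior pairs. Whether this low background sets the high folds was not tested.

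Interior pairs were spread unevenly over the autosomes. Over 2194 Mb of interior there were 6.43 pairs per Mb. Chromosome 19 had the most for its length, with 831 pairs or 26.5 per Mb, and held 5.89% of the pairs on 1.43% of the interior length. Chromosomes 10 (13.2 per Mb), 20 (11.01) and 16 (10.94) followed. Chromosome 5 had the lowest density, with 498 pairs or 3.04 per Mb, and chromosomes 12 (3.85) and 6 (4.145) were next to it. Chromosome 1 held the largest number, 1532. The ratio of the highest to the lowest density was 8.71 (7.78 to 9.75). It was 5.33 with a margin of 20 Mb, and 4.34 between chromosomes 10 and 5 when chromosome 19 was left out. All interior peaks of each list were also densest on chromosome 19, at 112.7 ESC and 40.6 iPSC peaks per Mb. They were sparsest on chromosome 5, at 31.0 and 4.51 per Mb. Across the 20 autosomes, pair density had a Spearman correlation of 0.974 with ESC and 0.997 with iPSC peak density. The order of the autosomes by pair density was thus close to their order by peak density in each list, of which the pairs are part. In iPSC, 63.5% of the interior peaks are themselves in a pair. Ranks do not compare the size of the spread. Between chromosomes 5 and 19, ESC peak density differed by a smaller factor than pair density did.

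The share of ESC peaks that belonged to a pair went with the density of pairs, and the share of iPSC peaks tended to run the other way over a narrower range. On chromosome 19, 23.5% of the interior ESC peaks were in a pair, and on chromosome 5, 9.81%. Across the 20 autosomes the Spearman correlation of pair density with this share was 0.955, a description of points in which the pairs enter both measures. The paired share of interior iPSC peaks ranged only from 59.3% on chromosome 10 to 69.8% on chromosome 6, with a Spearman correlation of −0.532. Chromosome 19, the densest, stood apart from this tendency, at 65.2%. Over all autosomes 63.5% of 22207 interior iPSC peaks (62.9 to 64.1%) and 13.9% of 101375 interior ESC peaks (13.7 to 14.1%) were in a pair. With the ESC list shortened to the length of the iPSC list, 6081 pairs and 27.4% of the interior iPSC peaks were left.

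How well the peaks of a pair coincided varied little among chromosomes. The median displacement ran from 17 bp on chromosomes 14, 16 and 18 to 21 bp on chromosome 6. Summits within 50 bp ranged from 80.1% on chromosome 19 to 84.7% on chromosome 5. The iPSC peak was wider in less than 50% of the pairs on each of the 20 autosomes, from 39.0% on chromosome 6 to 49.3% on chromosome 18. The interval lay below 50% on 12 of them and included 50% on the other 8. A higher iPSC fold was found in 72.0% of the pairs on chromosome 4 and up to 79.4% on chromosome 20.

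**Figure D4:**
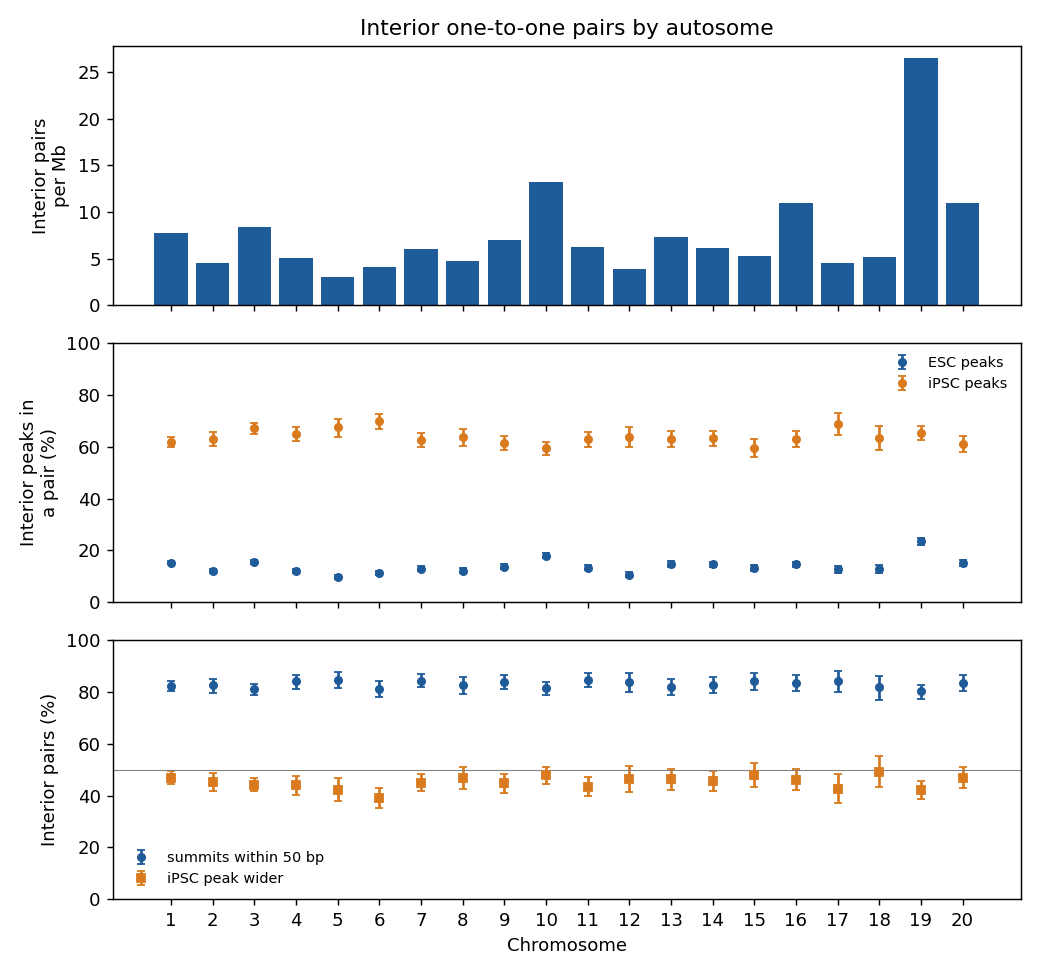
For each autosome, interior pairs per Mb (top), percentage of interior ESC and iPSC peaks that belong to a pair (middle), and percentage of interior pairs with summits within 50 bp or with the wider iPSC peak (bottom); bars on points are exact 95% counting intervals and the grey line marks 50%. Chromosome 19 stands highest at 26.5 pairs per Mb, while the shares in the bottom panel stay between 80.1 and 84.7% and between 39.0 and 49.3%.

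Along the arms the pairs were scattered with a few dense stretches. The median gap between neighbouring interior pairs was 57.8 kb (interquartile range 15.0 to 173.8 kb), and 627 gaps (4.45%) were 1 kb or less. Of 2184 interior windows of 1 Mb, 154 (7.05%) held no pair, and the median was 4 pairs (interquartile range 2 to 8). The 105 windows with 20 or more pairs held 3145 pairs, and 21 of these windows were on chromosome 19, out of its 31. The densest windows and the longest gaps were picked after their values were seen. The densest was on chromosome 3 from 34 to 35 Mb, with 109 pairs among 321 ESC and 146 iPSC peaks. The windows on either side, from 33 to 34 Mb and from 35 to 36 Mb, held 85 and 61 pairs. On chromosome 6 the window from 135 to 136 Mb held 64 pairs and contains the site with the largest ESC surplus in width. The longest stretch with no pair was 4.03 Mb on chromosome 11, from 76288407 to 80321241, where 67 ESC peaks and 1 iPSC peak were called. The second was 3.47 Mb on chromosome 1, from 99948317 to 103417747, with 59 ESC peaks and 0 iPSC peaks.

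Interior pairs were set beside the 12158 pairs within 10 Mb of an end, which were denser and had wider peaks. The end zones carried 30.4 pairs per Mb, 4.73 times the interior density, and more than the interior on each of the 20 autosomes. All peaks were denser there too: 400 Mb of end zones held 50255 ESC and 18383 iPSC peaks, and 2194 Mb of interior held 101375 and 22207. The share of iPSC peaks in a pair was close, at 66.1% near the ends and 63.5% inside. In ESC it was 24.2% and 13.9%. Among the paired peaks, those of the interior were narrower on each of the 20 autosomes in both lists. The medians over all autosomes were 247 against 267 bp in ESC and 233 against 252 bp in iPSC. The median displacement was lower inside on 18 autosomes, equal on 1 and higher on 1, and was 19 bp against 20 bp overall. Summits over 100 bp apart were found in 6.59% of interior and 9.75% of end pairs. Among pairs of the same width class the medians were close: 14, 15, 17, 23 and 31 bp inside, and 14, 15, 17, 22 and 33 bp near the ends, from the narrowest to the widest class. Among pairs of the lowest class of −log10 q they were 32 bp inside and 38 bp near the ends, and in the highest class 13 bp in both. Fragments at the summit were fewer inside, 107 against 125 in ESC and 97 against 112 in iPSC, and the part of depth in these differences was not tested. No test of the difference between the zones exists for 1 list per cell type.

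At the limit of 10 Mb itself, the pairs just inside lay on chromosomes 16 and 12, with summits 14 and 26 bp apart. Those just outside lay on chromosomes 12 and 4, with summits 0 and 25 bp apart. Pair density was 17.0 per Mb at 5 to 10 Mb from the nearer end, 10.2 at 10 to 20 Mb, 6.67 at 20 to 30 Mb, and 4.40 beyond 60 Mb. The median width of the paired ESC peaks was 286 bp within 2 Mb of an end, 249 bp at 5 to 10 Mb and again at 10 to 20 Mb, and 245 bp beyond 60 Mb. From 10 Mb inwards the share of distant summits stayed between 5.64 and 7.36%. Zones beyond 30 Mb hold fewer chromosomes, and the one beyond 60 Mb holds pairs of 12.

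**Figure D5:**
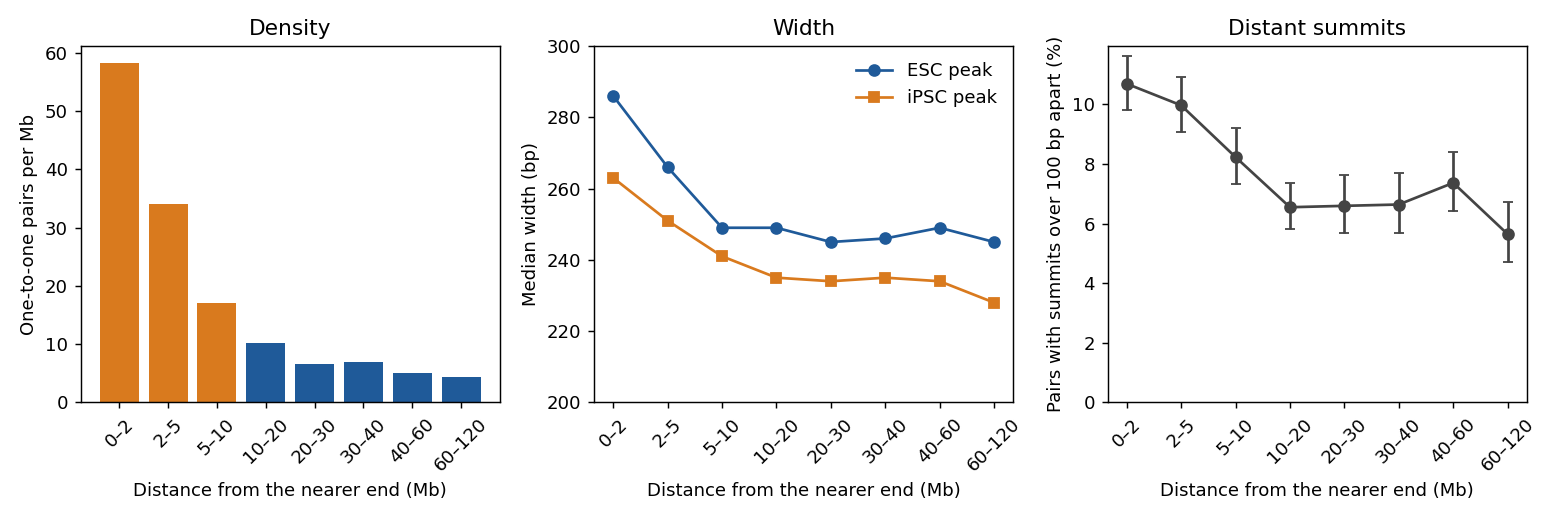
One-to-one pairs per Mb (left, bars near the ends in orange and interior in blue), median width of the paired ESC and iPSC peaks (middle), and percentage of pairs with summits over 100 bp apart with exact 95% counting intervals (right), by distance from the nearer chromosome end in Mb. Density falls from 58.2 per Mb within 2 Mb of an end to 4.40 beyond 60 Mb, while widths and distant summits change little beyond 10 Mb.

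Within the interior, paired ESC peaks were wider than the ESC peaks that met no iPSC peak, and paired iPSC peaks hardly differed in width from the unpaired ones. A wider peak more readily overlaps a peak of the other list, so the pairing rule itself favours wider peaks. The median width was 247 bp in paired and 208 bp in 86821 unpaired ESC peaks, with folds of 2.14 and 2.40 and −log10 q of 9.39 and 6.84. In iPSC it was 233 bp in paired and 229 bp in 7812 unpaired peaks, with folds of 2.61 and 2.59 and −log10 q of 8.57 and 6.90. Overlaps that were not one-to-one were rare inside the arms, with 452 ESC and 293 iPSC peaks, and the iPSC peaks among them were broad, with a median of 750 bp. An unpaired peak of either list lay within 500 bp of 1424 interior pairs. In these the median displacement was 21 bp, against 18 bp in the other 12678.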

How the data were processed

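The 24 libraries were grouped by title into MeDIP and input libraries of ESC and iPSC, 6 per group. The authors deposited 1 peak list per cell type. The submitters' processing notes name SAMtools 1.10, Picard 2.239, MACS2 and deepTools. The sources used here do not give the aligner, the genome build, the options or the way libraries were merged. The deposited fold is a linear ratio to a local background, and the deposited −log10 p and −log10 q belong to the same comparison. The deposited score repeats the −log10 q and was not used. Read depth per library is unknown.

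Peaks were paired in Python 3.11.15 (numpy 2.4.6, pandas 2.3.3, scipy 1.17.1; plots with matplotlib 3.10.9). The pairing rule, members and alternatives were chosen with earlier results of these data known. Displacements, widths and edges are iPSC minus ESC. Shares have Clopper-Pearson intervals, medians exact order-statistic intervals, and density ratios exact conditional intervals. Fragments at the summit were recovered from fold and −log10 p, taking the p-value as a Poisson tail and the fold with 1 added to both terms. They came out whole within 0.02 for 100% of the peaks, for iPSC after a fitted factor of 0.690. Both steps were tested on simulated data: all 5000 planted pairs were found, and at least 99.96% of 20000 simulated peaks were recovered, made with the same formulas. The planted pairs used isolated ESC peaks and small shifts, so each had to overlap, and peaks with several overlaps were not tried. Named sites are the 5 first pairs by displacement, by width surplus of each list, by shared bases and by the lower fold, and 2 on each side of the 10 Mb limit. The RefSeq gene table supplied describes Panubis1.0. Peaks extend beyond its last gene on 10 of 20 autosomes, by over 1 Mb on 9, so it was not used.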

Additional observations from a re-analysis of the deposited data

Results flagged for a closer look

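Shared sites also lay on sequences that the values above leave out, and they are given as counts. Chromosome X had 262 one-to-one pairs more than 10 Mb from its ends, with a median displacement of 19 bp, median widths of 258.5 bp in ESC and 236.5 bp in iPSC, and the wider iPSC peak in 37.8%. Unplaced scaffolds held 2042 one-to-one pairs at any position, with a median displacement of 18 bp, and the iPSC peak was the wider in 43.8%.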

How the results depend on the processing

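Of 74 values under 11 alternatives, 46 stayed within the counting interval of the reported value (for the number of pairs, within 1.5 times) and 28 moved. Only the median differences of width, start and end could change sign, and 0 did. With the ESC list cut to the length of the iPSC list by highest −log10 q there were 6081 pairs, a median displacement of 15 bp, 90.9% of summits within 50 bp, the wider iPSC peak in 36.2%, median differences of −13 bp (width), 6 bp (start) and −7 bp (end), a density ratio of 7.43, and 27.4% of interior iPSC peaks in a pair. At a −log10 q of at least 5, the displacement was 16 bp, 88.6% were within 50 bp, and 57.1% of iPSC peaks were paired. With overlap of at least 50% of both peaks, 84.6% were within 50 bp, the iPSC peak was wider in 44.2%, and 58.8% of iPSC peaks were paired. The density ratio was 7.42 with a margin of 5 Mb, 5.33 with 20 Mb and 4.34 without chromosome 19. Taking out pairs with a peak of 1 kb or more, but no unpaired peaks, left 62.8% of all interior iPSC peaks paired. By midpoints, 81.6% were within 50 bp. Of 3 alternatives added after the data were seen, removing peaks of 1 kb or more from both lists before pairing left 63.8% of iPSC peaks paired. With both peaks of 250 bp or more, the iPSC peak was wider in 42.7%, with medians of −12 bp (width), 4 bp (start) and −3.5 bp (end). Leaving out the 1458 pairs whose ESC peak is narrower than any iPSC peak gave 38.7% and medians of −12, 5 and −6 bp. That last shift is fixed by the choice of pairs, since the iPSC peak is the wider in all 1458. The loss of pairs with a shorter list or a stricter limit, the 58.8%, the 62.8% and the lower density ratio without chromosome 19 also follow from construction. The overlap limit keeps pairs by how their positions coincide, so its share within 50 bp is not a separate result. Cutting the ESC list alone keeps its most significant peaks; in the highest of 5 classes of ESC −log10 q the iPSC peak was wider in 30.4%. For the other moves the cause was not tested. No paired analysis was possible because the libraries of a cell type are merged into 1 list, and no replicate could be left out for the same reason.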
